A study of Arabidopsis thaliana with 6 samples.

Results

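The seed coat that surrounds Arabidopsis thaliana embryos at the 2-4 cell stage was compared with those embryos. The comparison rests on 3 of the 6 libraries of the series, chosen by their labels: 1 library of dissected seed coat (library 2) and 2 libraries of dissected wild-type embryos (WT libraries 7 and 11). The embryos were hybrids of a wild-type Landsberg erecta (Ler) mother and a wild-type Columbia (Col-0) father, at the 2-4 cell stage with part of the suspensor, the stalk that anchors the embryo. The seed coat came from seeds with embryos of that same stage, with Ler given as the strain of the parents, wild type. Tissue and strain therefore differ together, and an effect of the tissue cannot be told apart from one of the Col-0 copies that only the embryos carried. All plants were grown under 16 h light. The other 3 libraries, 2 of 2-4 cell embryos whose Ler mother was labelled kyp-2 (kyp libraries 11 and 12) and 1 of wild-type globular embryos, entered the model to give a measure of spread, and their levels are quoted as values beside those of the compared libraries.

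The seed coat grows from the integuments, the maternal cell layers of the ovule, after fertilisation. Its innermost layer makes proanthocyanidins, flavonoid polymers that turn the coat brown when oxidised, and mutants that lack them have a transparent testa. The outer layers are known for chloroplasts and starch early on and for mucilage later. A strand of phloem and xylem enters the coat through the funiculus, the stalk of the seed, and sugars, amino acids and nitrate leave the phloem there on their way to the embryo and the endosperm.

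RNA was measured in each library by SOLiD sequencing of linearly amplified total RNA. Reads assigned to genes numbered 1935906 in the seed coat, 2497235 and 3906313 in WT libraries 7 and 11, and 1448502 to 4107227 in the others. The seed coat had reads in 20677 loci, the WT libraries in 18184 and 19396. Ribosomal RNA took 8.999% of the reads of WT library 11 and 0.804 to 1.80% of the other libraries. Separate plants are not stated as the source of the libraries of a group, so the p-values speak only of the scatter among these samples, possibly technical. The seed coat has no replicate: it was assumed to vary as the WT and kyp pairs do, with 2 residual degrees of freedom. Reads are copies of amplified RNA without molecular identifiers, so counting intervals of ratios and read floors cover counting error only. Intervals of log2 fold changes come from the model and rest on the spread described above.

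Marker genes did not separate the tissues in both directions. Levels are given as TMM-scaled CPM, a depth-normalised read count, and paired WT values are those of library 7 and then library 11. The summed level of 10 seed coat markers was 1377 CPM in the seed coat, 1452 CPM in WT library 7 and 932 CPM in WT library 11, so the embryo libraries lay on either side of it. BAN, the anthocyanidin reductase of the proanthocyanidin layer, had 728 reads in the seed coat and 541 and 506 in the WT libraries. TT12, a vacuolar transporter of proanthocyanidin precursors that overlaps an antisense gene, had 538 reads in the seed coat and 617 and 633 in WT. INO, a YABBY factor of the outer integument, had 54 reads in the seed coat and 112 and 73 in WT. None of the 10 passed the test, and their median log2 fold change was 0.27. Seed coat markers were thus read in the embryo libraries at levels on either side of the seed coat library, and whether RNA of seed coat cells was part of the embryo libraries was not tested.

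A subset of the embryo markers was lower in the seed coat library. Their summed level was 700 CPM there, against 1270 and 1145 CPM in WT, and 5 of the 10 tested fell, against 0.627% of all genes tested (a count given below). Most of the sum came from ATML1 and PDF2, homeodomain factors of epidermal layers, which had 730 and 817 reads in the seed coat. Of the 11 markers DRN, LEC1, PLT2 and RKD4 were at 0 reads in the seed coat, and RKD4 was also at 0 in both WT libraries. WOX2, WOX8, BBM, HDG12 and WOX9 had 2, 1, 2, 5 and 6 reads.

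**Figure D1:**
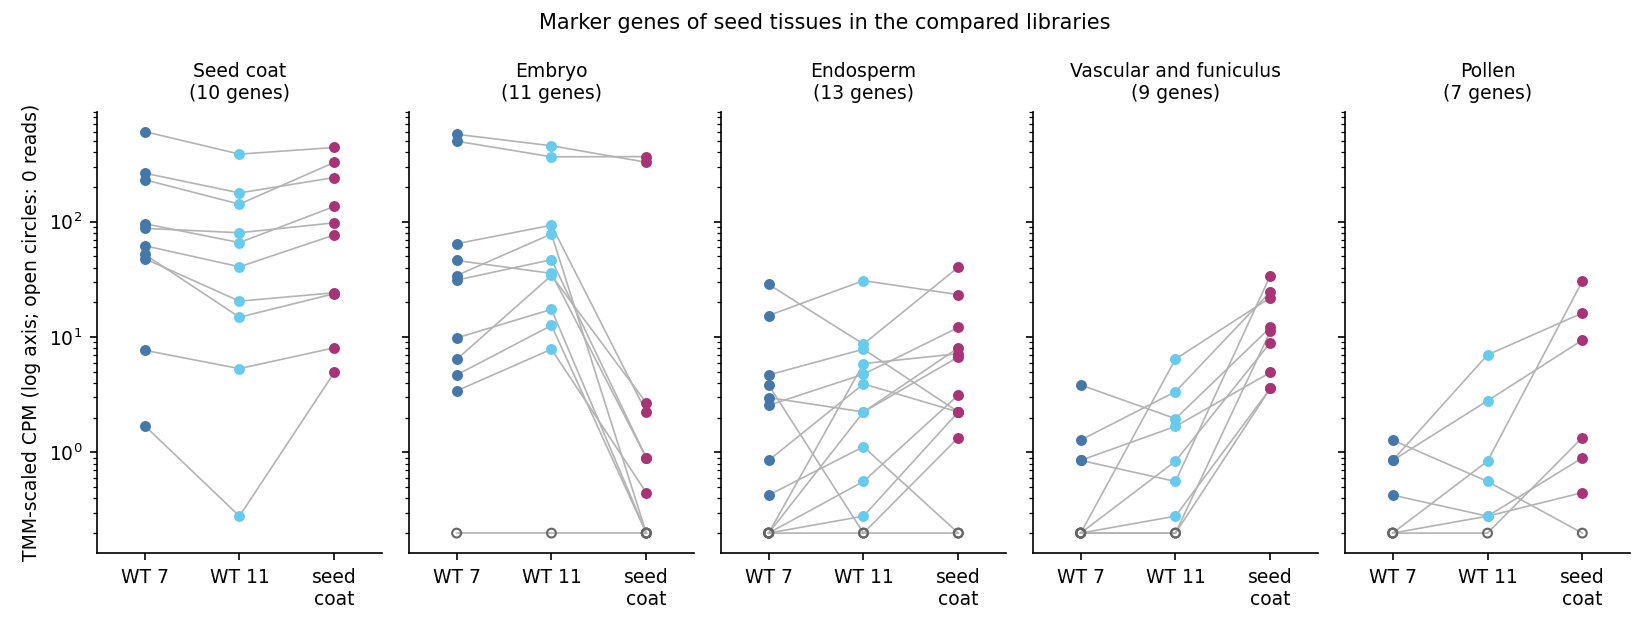
TMM-scaled CPM (log axis) of marker genes in WT libraries 7 and 11 and the seed coat library, with a line per gene and open circles at 0 reads. The seed coat markers differ between libraries in no common direction (INO at 47.8, 20.5 and 24.2 CPM, BAN at 231, 142 and 326 CPM), most embryo markers lie lower in the seed coat, and the vascular markers sum to 6.83 and 15.1 CPM in WT and 125 CPM in the seed coat.

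Markers of further tissues were present at low levels. The 13 endosperm markers summed to 109 CPM in the seed coat and 59.3 and 68.4 CPM in WT. In kyp libraries 11 and 12 they summed to 123 and 63.2 CPM, so kyp library 11 lay above the seed coat. The 9 vascular and funiculus markers, SUC2 among them, summed to 125 CPM in the seed coat and 6.83 and 15.1 CPM in WT. None was at 0 in the seed coat. Their sums were 44.3 and 44.0 CPM in kyp libraries 11 and 12. The 7 pollen markers summed to 58.7 CPM in the seed coat and 3.41 and 11.8 CPM in WT. The sums of kyp libraries 11 and 12, 50.9 and 49.8 CPM, were near that of the seed coat. Most of the seed coat sum came from LAT52-like, VGD1 and ANX1, with 68, 36 and 21 reads. HTR10, a sperm histone, had 3 reads in the seed coat and 0 in both WT libraries. HAP2, a gamete fusion protein, had 2 against 1 and 1, and PPME1 had 1 against 0 and 1. GEX2, which shares sequence with other loci, went the other way, with 0 against 3 and 2. In bulk samples fewer cells of a type and less RNA per cell cannot be told apart.

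Far more genes were called lower than higher in the seed coat. Of 17706 genes tested, 28 rose (0.158%) and 111 fell (0.627%) at an adjusted p under 0.05 by edgeR's quasi-likelihood test with Benjamini-Hochberg adjustment. At an unadjusted p under 0.05 there were 601 higher and 1085 lower, and all 139 called genes lay outside the range of the WT libraries. By a rule that takes no spread from the other groups, 467 genes (2.64%) were at least 4-fold above both WT libraries and 304 (1.72%) at least 4-fold below both. Its scaling and low-count filter still used all 6 libraries. Scaled by gene totals in place of TMM these were 745 and 213. The WT libraries themselves stood at least 4-fold apart in 11.1% of the genes tested, and the biological coefficient of variation was 0.505. The counts changed with the libraries fitted: leaving out WT library 7 gave 41 higher and 226 lower, and leaving out WT library 11 gave 104 and 167. The corresponding counts were 107 and 279 when kyp library 11 was dropped, 134 and 294 when kyp library 12 was dropped. Leaving out WT library 7 kept 19 of the 28 and 107 of the 111, and DESeq2 called 47 higher and 395 lower, among them 24 and all 111.

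**Figure D2:**
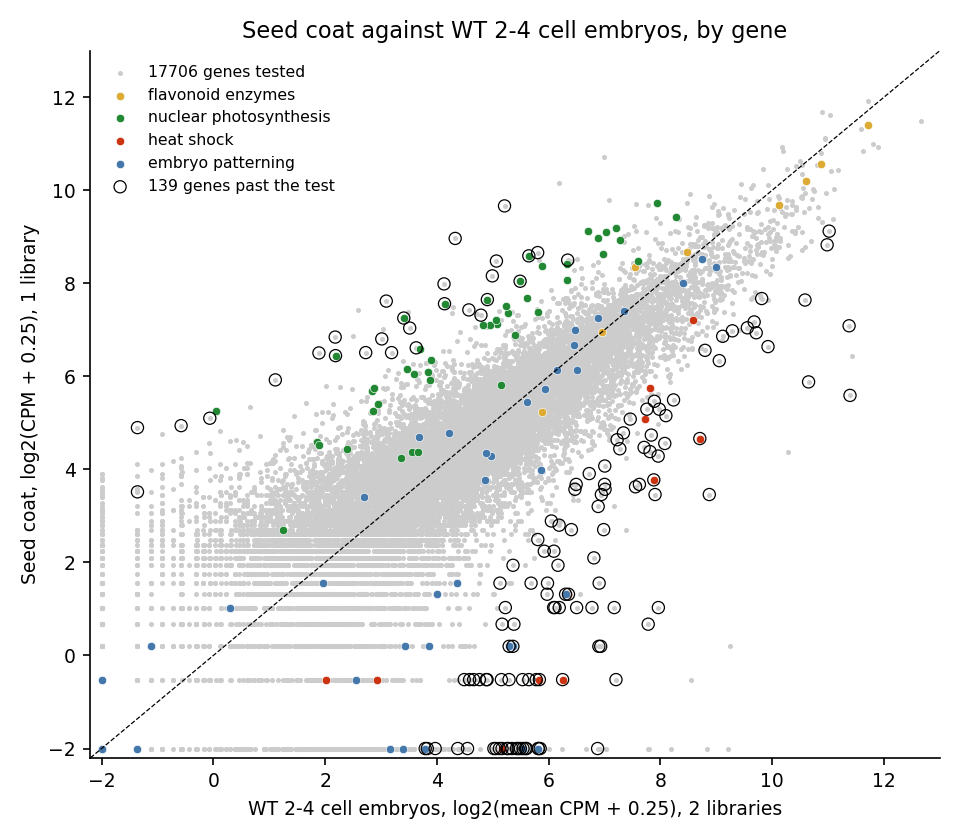
Level of each of the 17706 genes tested in the seed coat (log2 of CPM + 0.25, 1 library) against the mean of the 2 WT libraries, with 4 gene lists in colour and the 139 called genes ringed. Photosynthesis genes lie above the diagonal, heat shock genes below it and flavonoid enzymes along it.

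Photosynthesis was the list with the most genes called higher. The list held 46 nuclear genes of the photosystems, their antennae, electron transport and the Calvin cycle. All 46 had a higher level in the seed coat than in either WT library, against 36.1% of all genes tested, and 20 were at least 4-fold above both, against 2.64%. Many of the 46 have uncertain counts. LHCB6 and PSAH1 are among those that overlap an antisense gene. LHCB1.1 and LHCB2.1 are among those that share sequence with other loci, so such members are not separate measurements. The median log2 fold change of the 46 was 2.17, where that of all genes tested was 0. By edgeR 6 rose and none fell, against 0.158% higher over all genes, and 39 were higher at an unadjusted p under 0.05. The summed level was 9453 CPM in the seed coat and 2265 and 2614 CPM in WT libraries 7 and 11. It was 8178 and 3010 CPM in kyp libraries 11 and 12 and 2720 CPM in the globular library, so kyp library 11 came near the seed coat.

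The 6 genes called were antenna and photosystem subunits. LHCA3, an antenna protein of photosystem I, had 34 and 72 reads in WT and 421 in the seed coat, where its level was 189 CPM. The seed coat was far above both (log2 fold change 3.43, SE 0.53, edgeR adjusted p = 0.00505). LHCA3 stood at 170 and 84.8 CPM in kyp libraries 11 and 12 and 24.3 CPM in the globular library. LHCB5, a minor antenna protein of photosystem II, rose from 8.96 and 11.8 CPM in WT to 152 CPM (3.86, SE 0.68, edgeR adjusted p = 0.0100). LHCB4.1, of the same minor antenna, rose from 61 and 119 reads in WT to 448 (2.75, SE 0.55, edgeR adjusted p = 0.0210). The other called genes, LHCA4 (2.95), PSAN (4.31) and PSBP1 (2.56), each overlap an antisense gene, and since no source states that strand was kept their counts are uncertain. PSAN is a subunit of photosystem I, LHCA4 part of its antenna and PSBP1 a subunit of the oxygen-evolving complex. LHCB4.1 missed the threshold with isoform reads summed (edgeR adjusted p = 0.0555), and so did PSBP1 there and without WT library 7 (up to 0.0644).

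The genes of the list that did not pass included some with many reads. RBCS1A, the small subunit of Rubisco, had 533 and 1392 reads in WT and 1526 in the seed coat (log2 fold change 1.15, 95% interval 0.15 to 2.14, edgeR adjusted p = 0.417). PSBW, a small subunit of photosystem II, had 504 and 975 reads in WT and 1897 in the seed coat (1.80, interval 0.69 to 2.91, edgeR adjusted p = 0.158). The smallest change of the list was that of SBPASE of the Calvin cycle at 0.67 and the largest that of LHCB1.4 at 5.66, an antenna gene that shares sequence with its copies and is uncertain. With the name prefix MC of WT library 11 and kyp library 12 as a block the median of the list was 1.82.

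A pair of genes of chlorophyll synthesis, which the list does not hold, were also among the 28 and were picked after their values were seen. PORB, a light-dependent protochlorophyllide oxidoreductase, had 56 and 152 reads in WT and 796 in the seed coat (log2 fold change 3.41, SE 0.59, edgeR adjusted p = 0.00814). CRD1, a subunit of the cyclase that forms the fifth ring of chlorophyll, had 66 and 95 reads in WT and 355 in the seed coat (2.54, SE 0.50, edgeR adjusted p = 0.0203). Both overlap an antisense gene.

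**Figure D3:**
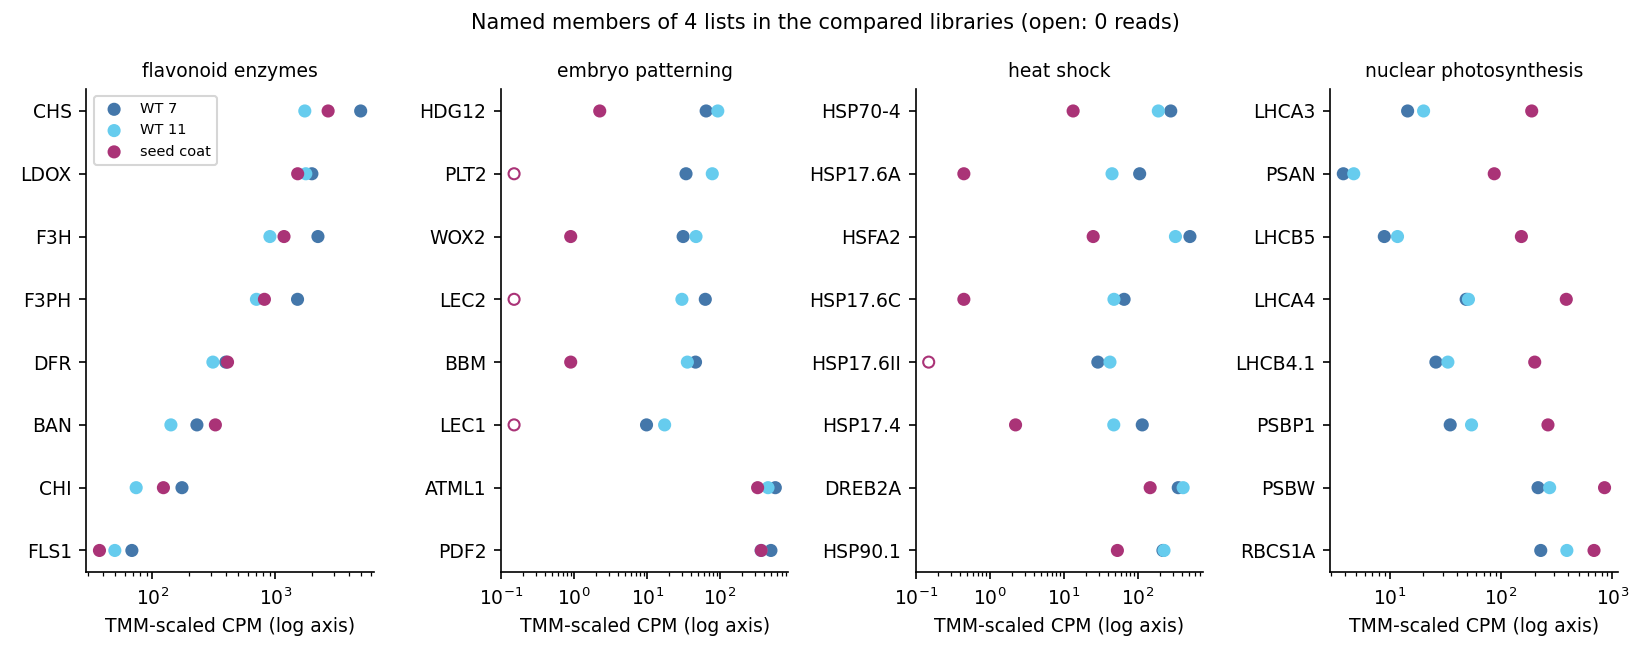
TMM-scaled CPM (log axis) in WT library 7, WT library 11 and the seed coat of up to 8 named genes from each of 4 lists, with open circles at 0 reads. Seed coat and WT points mix for the flavonoid enzymes, while the called embryo and heat shock genes fall to between 0 and 25.1 CPM and the photosynthesis genes all lie higher.

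A pair of genes of phloem loading and nitrate transport rose as well. NRT1.7, a nitrate transporter known from leaf phloem, had 0 and 1 reads in WT and 66 in the seed coat, a ratio of 175 (95% counting interval from 30.3 to 7009, edgeR adjusted p = 0.00717). Its reads covered 54.5% of the transcript in the seed coat. SUC2, the sucrose transporter that loads the phloem, had 2 reads in each WT library and 76 in the seed coat (log2 fold change 5.53, SE 1.01, edgeR adjusted p = 0.0118). These were 2 of 17 tested members of the sugar and nutrient transport list that rose, against 0.158% of all genes, and no member fell, against 0.627%. The median of that list, in which AAP2 passed the low-count filter through the seed coat alone, was 0.72, and 1.06 without WT library 11. The levels of NRT1.7 were 47.0 and 17.7 CPM in kyp libraries 11 and 12 and 2.97 CPM in the globular library, against 29.6 CPM in the seed coat. Those of SUC2 were 19.2, 16.8 and 8.91 CPM, against 34.1 CPM. SUC1, a further sucrose transporter outside the list and picked after its values were seen, had 26 and 47 reads in WT and 218 in the seed coat (3.00, SE 0.65, edgeR adjusted p = 0.0367).

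Other transporters of the list did not pass. The amino acid permease gene AAP2 had 0 and 1 reads in WT and 38 in the seed coat (ratio 101, counting interval from 17.0 to 4080, edgeR adjusted p = 0.333). AAP1, a permease of the embryo and seed, had 340 and 633 reads in WT and 697 in the seed coat (0.95, 95% interval 0.02 to 1.89, edgeR adjusted p = 0.515). UMAMIT14, an amino acid exporter of seed coat and funiculus, had 106 and 148 reads in WT and 261 in the seed coat (1.43, interval 0.39 to 2.47, edgeR adjusted p = 0.260). The hexose transporter gene SWEET4 (1.06), the cell wall invertase gene CWINV4 (0.72), the sucrose transporter gene SUC5 (0.31) and NRT1.6 (0.38), a nitrate transporter of the funiculus that overlaps an antisense gene, had edgeR adjusted p of 0.734 to 0.995. SUC5 turned to −0.53 without WT library 7, and NRT1.6 to −0.05 without WT library 11. SWEET12, a sucrose exporter, lay on the other side with 49 and 116 reads in WT and 8 in the seed coat (−2.88, edgeR adjusted p = 0.194).

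Most genes of the vascular list had higher values, but no member passed. The list leaves out SUC2, a called gene of the vascular markers above, which the sugar and nutrient transport list holds. Of all 12 listed genes, tested or not, 10 lay above both WT libraries. All 8 tested did, against 36.1% of all genes tested. Of the 8 tested, SEOR1 passed the filter on low counts through the seed coat alone, so its direction was fixed by that filter. SEOR1, a structural protein of sieve elements, had no read in WT and 25 in the seed coat, at least 8.75-fold higher against a floor of 3 reads per library (edgeR adjusted p = 0.464). PP2-A1, a phloem lectin that overlaps an antisense gene, had 3 and 12 reads in WT and 55 in the seed coat (3.35, 95% interval 0.56 to 6.15, edgeR adjusted p = 0.377). XCP2, a protease of xylem vessels, had 0 and 23 reads in WT and 49 in the seed coat (2.70, interval −0.58 to 5.98, edgeR adjusted p = 0.686). IRX5 and IRX3, cellulose synthases of secondary walls with antisense neighbours, had 27 and 20 reads in the seed coat and at most 9 in a WT library. ATHB8, a procambium factor, had 22 reads in the seed coat and 1 and 4 in WT, and APL, a phloem identity factor, 11 against 2 and 6. The summed level of the list was 102 CPM in the seed coat and 8.11 and 20.18 CPM in WT. Few reads lay behind these values, and by edgeR 0 passed the adjusted threshold, 3 had an unadjusted p under 0.05.

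The other genes called higher belonged to varied families. WNK1, a protein kinase without the usual lysine, had 5 and 6 reads in WT and 135 in the seed coat (log2 fold change 4.97, SE 0.87, edgeR adjusted p = 0.00970). PIP2A, an aquaporin of the plasma membrane, had 20 and 15 reads in WT and 203 in the seed coat (3.85, SE 0.69, edgeR adjusted p = 0.0111). CAT3, a catalase, had 21 and 91 reads in WT and 566 in the seed coat (3.85, SE 0.74, edgeR adjusted p = 0.0185, but 0.162 by DESeq2). The seed coat was above both WT libraries in each, although the CAT3 reads of the WT libraries differed among themselves.

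DYL1, a dormancy-associated gene, had 24 and 105 reads in WT and 1115 in the seed coat (4.63, SE 1.03, edgeR adjusted p = 0.0426). It missed the threshold under 5 of 14 alternatives, with adjusted p up to 0.338. BMY3, annotated as a beta-amylase and overlapping an antisense gene, had 22 and 229 reads in WT and 1811 in the seed coat (4.44, SE 0.73, edgeR adjusted p = 0.00668, DESeq2 0.0675). Its log2 fold change was 3.66 without WT library 7 and 6.43 without WT library 11. A terpenoid cyclase gene, AT3G14520, rose by 4.68 on the log2 scale, the DUF506 gene AT4G32480 by 4.51, the uncharacterised AT3G28750 by 4.65 and the F-box gene AT1G23390 by 3.82 (edgeR adjusted p 0.00814 to 0.0292). With isoforms summed the calls of AT3G14520 (edgeR adjusted p = 0.0527) and AT3G28750 were lost, the latter also by DESeq2 (adjusted p up to 0.213). Of these AT3G28750 reached 6.43 and AT4G32480 5.83 without WT library 11.

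GSTU27, a glutathione S-transferase, had 0 and 1 reads in WT and 25 in the seed coat, a ratio of 66.2 (counting interval from 10.8 to 2719, edgeR adjusted p = 0.0471). The call was lost under 5 of 14 alternatives, without WT library 7 among them, and the globular library held 54.6 CPM against 11.2 CPM in the seed coat. The LAT52-like gene AT5G45880, related to a pollen protein of tomato, had 0 and 3 reads in WT and 68 in the seed coat, a ratio of 60.0 (19.7 to 298, edgeR adjusted p = 0.0242). Its level was 30.5 CPM in the seed coat, 25.1 and 12.9 CPM in kyp libraries 11 and 12 and 1.78 CPM in the globular library. The call was lost with isoforms summed and when libraries were thinned to equal depth (edgeR adjusted p up to 0.0827). It was the 1 called of 3 tested pollen genes, against 0.158% higher over all genes, and 5 listed pollen genes were not tested. VGD1, a pollen pectin methylesterase, had 2 and 25 reads in WT and 36 in the seed coat, and ANX1, a receptor kinase of pollen tubes with an antisense neighbour, 2 and 10 against 21 (edgeR adjusted p = 0.650 and 0.652). The median of these 3 was 2.29, and 4.16 without WT library 11.

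The rest of the 28 were picked after their values were seen. They were BXL2, a beta-xylosidase (3.33), GH3.3, which joins auxin to amino acids (2.85), and the dormancy and auxin associated gene AT1G56220 (3.52). AT5G19120, of the aspartyl protease family (2.16), the zinc finger gene AT5G22920 (3.16) and AT3G29240 (2.86) complete them. Their edgeR adjusted p lay between 0.0325 and 0.0451. Reads of the 28 genes covered 49.9 to 96.2% of the transcript in the seed coat, with a median of 81.6%.

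**Figure D4:**
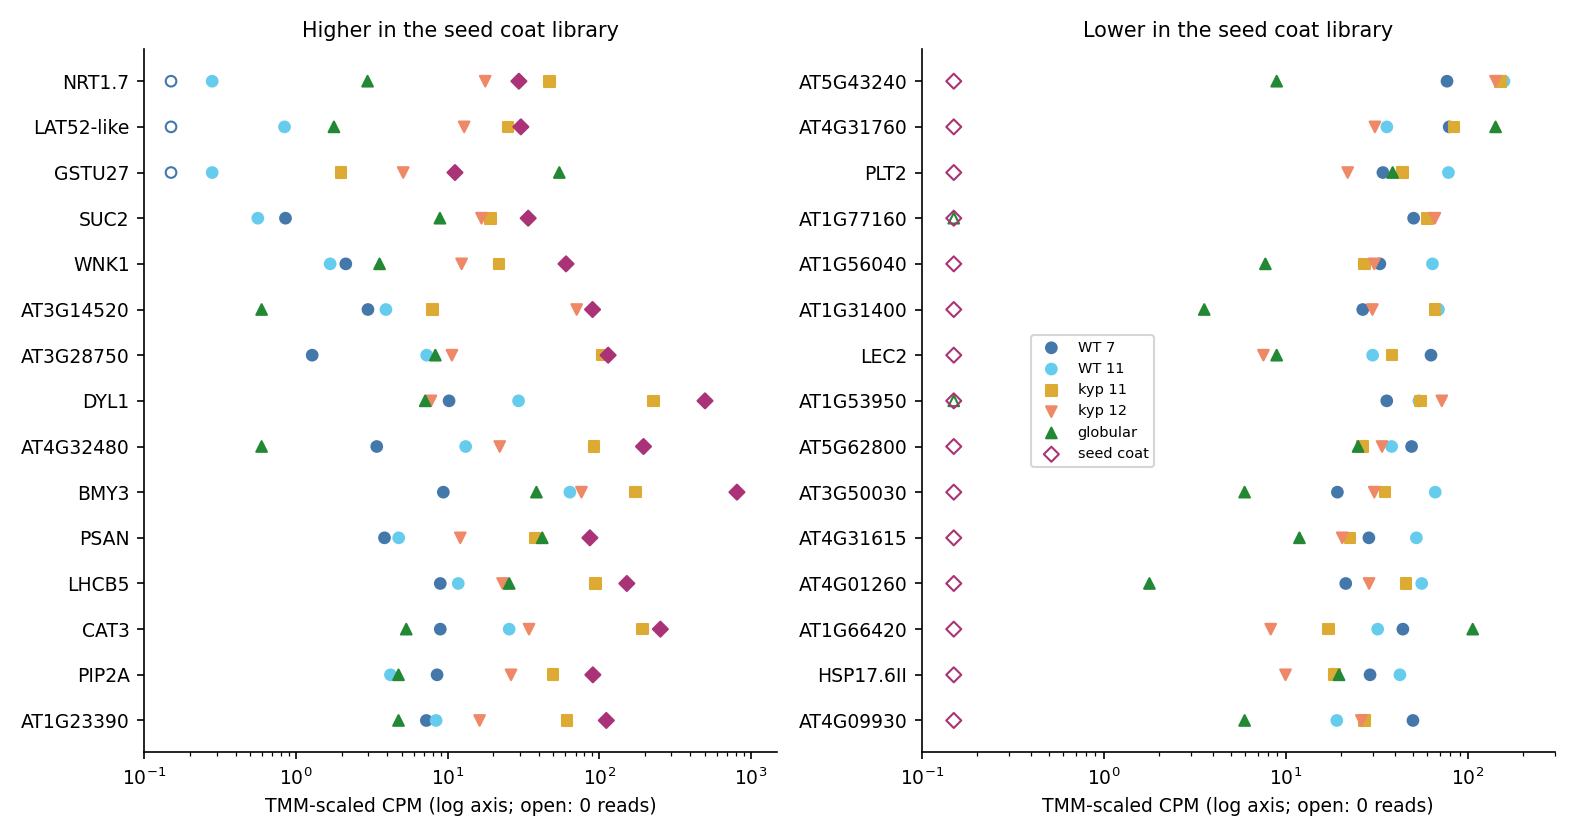
TMM-scaled CPM (log axis) in all 6 libraries of the 15 genes with the largest fold changes in each direction, with open symbols at 0 reads. The higher genes have the seed coat above both WT libraries and kyp library 11 often near it; the 15 lower genes have no read in the seed coat.

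Genes that fell in the seed coat included regulators of the early embryo. Of 38 tested embryo patterning genes 6 fell and none rose, against 0.627% lower over all genes tested, and 12 were lower at an unadjusted p under 0.05. The seed coat was below both WT libraries for 20 of the 38, against 30.5% of all genes tested. It was above both for 6, against 36.1%. The median log2 fold change was −0.47, or −0.39 with genes of few reads set at their counting ratios or floors. A subset of the list lay far below that median.

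That subset held LEC1, LEC2 and BBM, each able to start embryo development when expressed elsewhere. LEC2, a B3 factor, had 147 and 107 reads in WT and 0 in the seed coat (edgeR adjusted p = 0.0210). Against the floor of 3 reads it was at least 34.5-fold below the mean WT level. All such bounds of lower genes are taken from that mean, and a single WT library can lie closer to the floor. LEC1, a subunit of the NF-Y complex, had 23 and 62 reads in WT and 0 in the seed coat, at least 10.1-fold lower (edgeR adjusted p = 0.0440). BBM, an AP2 factor, had 108 and 127 reads in WT and 2 in the seed coat, a ratio of 44.4 (counting interval from 12.1 to 368, edgeR adjusted p = 0.0210). Neither LEC2 nor BBM passed with isoforms summed (edgeR adjusted p = 0.0520 and 0.0524). LEC1 did not pass under 4 of 14 alternatives, with adjusted p up to 0.0780.

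The others mark cell lineages of the embryo. PLT2, a PLETHORA factor of the root pole, had 80 and 279 reads in WT and 0 in the seed coat, at least 41.8-fold lower (edgeR adjusted p = 0.00528). Its levels were 43.6 and 21.9 CPM in the kyp libraries and 38.6 CPM in the globular library. WOX2, a homeobox factor of the apical lineage, had 73 and 167 reads in WT and 2 in the seed coat, a ratio of 45.3 (12.4 to 376, edgeR adjusted p = 0.0192). HDG12, a homeodomain factor of the epidermis, had 151 and 332 reads in WT and 5 in the seed coat (log2 fold change −5.11, SE 0.76, edgeR adjusted p = 0.00353). WT and seed coat values were far apart for all 3.

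Members that did not pass were of both kinds. FUS3 and DRN, of the embryo programme and the apical embryo, had no reads in the seed coat (edgeR adjusted p = 0.261 and 0.215). They were at least 7.62-fold and 6.44-fold below the mean WT level. DRN stood at 4.69 and 12.6 CPM in WT, against a floor of 1.34 CPM, so a 4-fold fall from both WT libraries was not shown. PLT1 had 4 and 96 reads in WT and 2 in the seed coat. ATML1 (−0.65, 95% interval −1.59 to 0.29) and PDF2 (−0.24, interval −1.17 to 0.70) had edgeR adjusted p of 0.786 and 0.983, and PDF2 turned to 0.01 without WT library 7. MP, an auxin response factor with an antisense neighbour, had 692 and 1367 reads in WT and 572 in the seed coat, and SHR, a ground tissue factor, 276 and 422 against 342.

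The 15 lower genes with the largest fitted falls, PLT2, LEC2 and HSP17.6II among them, had no read in the seed coat. Fitted values of such genes are no bound, and genes with 1 to 3 seed coat reads may have fallen as far: AT4G01180, picked after its values were seen, had 112 and 881 reads in WT and 1 in the seed coat, a ratio of 375 (counting interval from 67.1 to 14820). AT5G43240, a DUF674 gene, had 180 and 563 reads in WT libraries 7 and 11, at least 87.3-fold lower in the seed coat (edgeR adjusted p = 0.000518). Its level was 151 and 142 CPM in the kyp libraries and 8.91 CPM in the globular library. AT4G31760, a peroxidase gene, had 185 and 128 reads in WT (at least 42.7-fold lower, edgeR adjusted p = 0.00505) and stood at 142 CPM in the globular library. AT1G53950, annotated as a ubiquitin fused to a ribosomal protein, had 84 and 192 reads in WT (at least 33.3-fold lower, edgeR adjusted p = 0.00353) and no read in the globular library either. AT1G77160, a DUF506 gene that shares sequence with other loci and is uncertain, behaved alike, at least 41.7-fold lower and without a globular read.

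Lower bounds for the remainder, taken from the mean WT level, lay between 25.7-fold and 36.0-fold. They were the HEAT and U-box gene AT1G56040 (at least 36.0-fold), the TRAF-like genes AT1G31400 (35.5) and AT5G62800 (32.4), AT3G50030 with ARM and TPR repeats (31.7) and the B3 gene AT4G31615 (30.0), which overlaps an antisense gene. Below these were AT4G01260 (28.7) and AT1G66420 (28.2), of the storekeeper family of DNA-binding proteins, and the AIG1 family gene AT4G09930 (25.7). Their edgeR adjusted p lay between 0.00505 and 0.0143. In WT their reads numbered 45 to 246 a library. The globular level of AT1G66420 was 106 CPM, that of AT4G01260 1.78 CPM. In all, 22 of the 111 genes had no read in the seed coat and 21 had 1 to 3. In the less covered WT library the reads of the 111 genes spanned 24.8 to 98.7% of the transcript, with a median of 68.7%.

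The smallest p belonged to AT3G24250, a glycine-rich protein gene picked after its values were seen. It had 4743 and 11978 reads in WT and 107 in the seed coat, and fell by 5.81 on the log2 scale (edgeR adjusted p = 8.37e-05).

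Of 16 tested ovule and integument regulators 1 fell, against 0.627% of all genes. KLU, also called CYP78A5, is a cytochrome P450 that acts on organ and seed size. It had 2782 and 7247 reads in WT and 131 in the seed coat, or 1187, 2031 and 58.7 CPM. The seed coat lay far below both (log2 fold change −4.78, SE 0.57, edgeR adjusted p = 0.000518), and the call held under all 14 alternatives. The level was 1509 and 1088 CPM in the kyp libraries and 284 CPM in the globular library. Its reads covered 69.1% of the transcript in the seed coat and 84.4 and 95.8% in WT. Its relatives CYP78A6 and CYP78A9 had 27 and 6 reads in the seed coat and 8 and 10, and 0 and 0, in WT.

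None of the other 15 tested genes of that list passed. SHP1, a MADS factor with an antisense neighbour, had 236 and 325 reads in WT and 464 in the seed coat (1.12, 95% interval 0.17 to 2.07, edgeR adjusted p = 0.394). STK, a MADS factor of ovule identity, had 1414 and 1373 reads in WT and 980 in the seed coat (−0.17, interval −1.12 to 0.78, edgeR adjusted p = 0.993). ARF2, an auxin response factor that limits integument growth, had 689 and 1039 reads in WT and 735 in the seed coat (0.17, interval −0.77 to 1.11, edgeR adjusted p = 0.993). LUG (−0.63) and SEU (0.30), partners in a corepressor, SHP2 (−0.53) and the kinase gene UCN (−0.32) had edgeR adjusted p of 0.834 to 0.981. The median of the 16 genes was −0.18, and 0.18 without WT library 7, when STK (0.19) and SHP2 (0.03) turned positive. Among the 16, AGL63 and SUP passed the filter on low counts through the WT libraries alone. STK, SHP2 and SEU overlap antisense genes.

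The tested genes of the heat shock list were all lower in the seed coat. All 11 lay below both WT libraries, against 30.5% of all genes, and 8 were at least 4-fold below both, against 1.72%. By edgeR 6 of the 11 fell, against 0.627% over all genes, and the median log2 fold change was −4.05. This does not extend to the whole family of small chaperones. Of 22 tested genes annotated as HSP20-like chaperones, a family picked after the calls were seen, 9 were positive and the median was −0.28. The summed level of the 13 listed genes was 277 CPM in the seed coat and 2000 and 1470 CPM in WT libraries 7 and 11. It was 626 and 713 CPM in the kyp libraries and 311 CPM in the globular library, so the WT 2-4 cell libraries held the highest sums of the series.

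HSFA2, a heat-inducible heat shock factor, had 1195 and 1159 reads in WT and 56 in the seed coat (−4.05, SE 0.67, edgeR adjusted p = 0.00668). The chaperone gene HSP70-4 had 658 and 680 reads in WT and 30 in the seed coat (−4.13, SE 0.61, edgeR adjusted p = 0.00353). The small chaperone genes HSP17.6A and HSP17.6C were left with 1 read each in the seed coat, from 250 and 161, and 154 and 171, in WT. These are ratios of 155 (counting interval from 27.7 to 6143, edgeR adjusted p = 0.00519) and 123 (21.9 to 4860, edgeR adjusted p = 0.00814). HSP17.6II had 68 and 151 reads in WT and 0 in the seed coat, at least 26.5-fold lower (edgeR adjusted p = 0.0118). HSP17.4, with an antisense neighbour, had 271 and 170 reads in WT and 5 in the seed coat (−5.15, SE 0.95, edgeR adjusted p = 0.0128). The calls of these 6 genes held under all 14 alternatives. HSP101, a disaggregase with an antisense neighbour, had 722 and 418 reads in WT and 75 in the seed coat (−2.66, edgeR adjusted p = 0.0634). HSP90.1 had 516 and 812 against 119 (−2.07, 95% interval −3.18 to −0.96, edgeR adjusted p = 0.0841), and DREB2A, a drought and heat factor with an antisense neighbour, 831 and 1473 against 330 (−1.38, edgeR adjusted p = 0.288).

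The touch, wounding and jasmonate list, 16 genes tested, had a median of −0.73 and no call by edgeR, with 2 lower at an unadjusted p under 0.05. The median was −0.31 without WT library 7 and −0.49 without WT library 11. LOX3, a lipoxygenase of jasmonate synthesis, had 422 and 260 reads in WT and 69 in the seed coat (−2.03, 95% interval −3.65 to −0.41, edgeR adjusted p = 0.333). JAZ1, a jasmonate repressor, had 617 and 922 reads in WT and 296 in the seed coat (−0.98, interval −1.99 to 0.04, edgeR adjusted p = 0.563). AOS (−1.03) and OPR3 (−0.63) are enzymes of jasmonate synthesis with edgeR adjusted p of 0.655 and 0.900, and LOX2, at −1.29, turned to 0.12 without WT library 7. TCH2 (−0.15, antisense neighbour), TCH4 (0.05) and ZAT12 (0.26), which respond to touch and stress, had edgeR adjusted p of 0.988 to 1, and TCH4 turned to −0.12 without WT library 7.

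Cell cycle genes leaned lower without a call. Of 35 genes tested 32 had a negative log2 fold change (49.5% of all genes tested were positive), and 25 lay below both WT libraries, against 30.5% of all genes tested. The median was −0.92. By edgeR 0 passed and 11 were lower at an unadjusted p under 0.05. TOPII, the DNA topoisomerase of chromosome separation, had 953 and 1455 reads in WT and 267 in the seed coat (−1.77, 95% interval −2.79 to −0.74, edgeR adjusted p = 0.121). CDKB1-2, a mitotic kinase gene that overlaps an antisense gene, had 18 and 68 reads in WT and 0 in the seed coat, at least 9.94-fold lower (edgeR adjusted p = 0.0779). TSO2 and RNR1, of ribonucleotide reductase, were at −0.96 and −1.19, PCNA1, the replication clamp, at −1.26, and the helicase subunits MCM3 and MCM2 at −1.08 and −0.29. The kinesin HIK stood at −1.49 and the cytokinesis syntaxin KN, with an antisense neighbour, at −0.42. Their edgeR adjusted p lay between 0.322 and 0.978.

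The flavonoid pathway, the best known programme of the seed coat, gave no call. The summed level of its 8 enzymes was 7114 CPM in the seed coat and 11569 and 5703 CPM in WT libraries 7 and 11. By edgeR none of the 8 passed, none had an unadjusted p under 0.05, and the median log2 fold change was −0.31. This median was 0.39 without WT library 7 and −0.69 without WT library 11, and whether the embryo libraries carried seed coat RNA was not tested. CHS, chalcone synthase, had 11628 and 6215 reads in WT and 6016 in the seed coat (−0.31, 95% interval −1.3 to 0.67, edgeR adjusted p = 0.972). LDOX, which makes anthocyanidins, had 4662 and 6331 reads in WT and 3401 in the seed coat (−0.30, interval −1.23 to 0.63, edgeR adjusted p = 0.970). BAN, which turns anthocyanidins towards proanthocyanidins, was at 326 CPM in the seed coat and 231 and 142 CPM in WT (0.81, interval −0.18 to 1.80, edgeR adjusted p = 0.691).

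The intervals of these enzymes allow a change of more than 2-fold in at least 1 direction. Of the other enzymes F3H (−0.41) and F3PH (−0.44) are hydroxylases, CHI (−0.01) the isomerase, DFR (0.21) the reductase and FLS1 (−0.66) the branch to flavonols. Their edgeR adjusted p lay between 0.868 and 1. Without WT library 7, CHS, F3H, F3PH and CHI turned positive, at 0.63, 0.38, 0.22 and 0.74. CHS and F3H overlap antisense genes.

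Regulators and transporters of the transparent testa set gave no call either, with 0 of 16 tested past the edgeR threshold, 0 at an unadjusted p under 0.05 and a median of 0.18 (0.37 without WT library 7, −0.05 without WT library 11). TT8, a bHLH regulator of BAN, had 263 and 393 reads in WT and 290 in the seed coat (0.23, 95% interval −0.85 to 1.3, edgeR adjusted p = 0.989). TT2, its MYB partner, had 235 and 282 reads in WT and 209 in the seed coat (0.06, interval −0.96 to 1.09, edgeR adjusted p = 1). TTG1, the WD40 partner, was at 0.32 and EGL3, a related bHLH factor, at −0.75. AHA10, a proton pump of the vacuole, was at 0.38, TT10, a laccase that browns the coat, at 0.22, GSTF12, which carries flavonoids and has an antisense neighbour, at 0.30 and TT12 at 0.13. Their edgeR adjusted p lay between 0.841 and 0.997. TT2, TT12 and GSTF12 turned to −0.10, −0.13 and −0.11 without WT library 11.

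The phenylpropanoid entry to the pathway had 7 tested genes, no call by edgeR, none at an unadjusted p under 0.05 and a median of 0.14 (0.51 without WT library 7, −0.16 without WT library 11). C4H, cinnamate hydroxylase, had 1247 and 916 reads in WT and 1385 in the seed coat (0.65, 95% interval −0.34 to 1.65, edgeR adjusted p = 0.811). PAL1, a phenylalanine ammonia-lyase, had 1503 and 1135 reads in WT and 912 in the seed coat (−0.23, interval −1.24 to 0.78, edgeR adjusted p = 0.986). PAL2 was at 0.14, PAL3 at 0.68, and the coumarate ligase genes 4CL1, 4CL2 and 4CL3 at 0.26, −0.14 and −0.03. PAL1 and 4CL3 turned to 0.36 and 0.51 without WT library 7, and 4CL1, with an antisense neighbour, to −0.23 without WT library 11. PAL4 had 8 reads in the seed coat and 11 and 4 in WT and was not tested.

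Genes of the outer layers and of seed coat walls gave no call either. Mucilage and outer integument genes had 13 tested members, with a median of 0.45 and 0 at an unadjusted p under 0.05 by edgeR. Above both WT libraries were 8 of them, against 36.1% of all genes tested, and none lay below both, against 30.5%. SBT1.7, a subtilase of mucilage release, had 960 and 797 reads in WT and 965 in the seed coat (0.45, 95% interval −0.52 to 1.42, edgeR adjusted p = 0.924). GL2, a homeodomain factor of mucilage cells with an antisense neighbour, was at 0.87, and KNAT7, a wall factor, at 0.80. MYB5 (antisense neighbour) was at 0.58, LUH at 0.47, GATL5 at 0.07, RHM2 (antisense neighbour) at −0.10 and CESA5 at −0.16, with edgeR adjusted p of 0.757 to 1 over these 7. RHM2 and CESA5 turned to 0.47 and 0.16 without WT library 7 and GATL5 to −0.05 without WT library 11. MYB5 and LUH are regulators, RHM2 and GATL5 act in pectin synthesis and CESA5 makes the cellulose of mucilage.

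Cutin and suberin genes had 11 tested members and a median of 0.24, which was 0.45 without WT library 11. CYP86B1, a hydroxylase of very long chain suberin acids, had 101 and 318 reads in WT and 16 in the seed coat and narrowly missed the threshold (−3.20, 95% interval −4.79 to −1.61, edgeR adjusted p = 0.0565). DCR, an acyltransferase of cutin, had 1285 and 1630 reads in WT and 1293 in the seed coat (0.21, interval −0.72 to 1.13, edgeR adjusted p = 0.986). The cutin hydroxylase genes CYP86A8 and CYP86A2 were at 0.67 and 0.15, the acyltransferase genes GPAT4 and GPAT8 at 0.13 and −0.31, LACS2, which activates fatty acids, at 0.24 and BDG, of cuticle formation, at 0.35. Their edgeR adjusted p lay between 0.824 and 0.998. CYP86A2 and GPAT4 turned to −0.39 and −0.12 without WT library 11 and GPAT8 to 0.13 without WT library 7. CYP86A2 and BDG overlap antisense genes.

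Vacuolar processing enzymes are proteases of which DELTA-VPE acts in cell death of the inner coat layers. DELTA-VPE had 225 and 235 reads in WT and 302 in the seed coat (0.74, 95% interval −0.34 to 1.83, edgeR adjusted p = 0.790). GAMMA-VPE, with an antisense neighbour, had 21 and 155 reads in WT and 173 in the seed coat (1.54, interval 0.08 to 3.01, edgeR adjusted p = 0.483). BETA-VPE had 6 and 1 reads in WT and 0 in the seed coat. ALPHA-VPE, also with an antisense neighbour, had 8 reads in the seed coat and 0 in WT and was not tested. The median of the 3 tested was 0.74, and 0.50 without WT library 11.

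Starch synthesis genes had a median of −0.07 over 16 tested (0.16 without WT library 7, −0.30 without WT library 11), no call by edgeR, and 1 higher and 2 lower at an unadjusted p under 0.05. Among the 16, SUS2 passed the filter on low counts through the WT libraries alone. SUS1, a sucrose synthase, had 956 and 1895 reads in WT and 2094 in the seed coat (1.00, 95% interval 0.13 to 1.87, edgeR adjusted p = 0.420). APS1, a subunit of ADP-glucose pyrophosphorylase, had 391 and 297 reads in WT and 113 in the seed coat (−1.3, interval −2.47 to −0.13, edgeR adjusted p = 0.440). GBSS1, the granule-bound synthase, had 432 and 126 reads in WT and 76 in the seed coat (−1.68, interval −3.34 to −0.02, edgeR adjusted p = 0.518). The seed coat fell outside the WT range for these 3, in opposite directions. APL3 was at −1.31, SS3 at −0.71, SBE2.2 at −0.58, SBE2.1 at −0.11 and SS2 at −0.06, with edgeR adjusted p of 0.655 to 1, and SS2 turned to 0.16 without WT library 7. SBE2.1 and SS2 overlap antisense genes.

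Endosperm and imprinted genes had few reads. Of all 18 listed genes, tested or not, 11 lay above both WT libraries. Of the 13 tested 9 did, against 36.1% of all genes tested. By edgeR 0 of 13 tested passed and 0 had an unadjusted p under 0.05. Among the 13, PHE2 passed the filter on low counts through the seed coat alone, so its direction was fixed by that filter. PHE1, an imprinted MADS gene, had 67 and 31 reads in WT and 90 in the seed coat (1.12, 95% interval −0.95 to 3.20, edgeR adjusted p = 0.885). AGL62, a MADS gene that delays cellularisation, had 6 and 17 reads in WT and 27 in the seed coat, and MEA, a Polycomb subunit, 7 and 8 against 18. FWA, with an antisense neighbour, had 36 and 110 reads in WT and 52 in the seed coat (0.01), and HDG3 70 and 22 against 39 (−0.03). FWA and HDG3, imprinted homeodomain genes, turned to −0.40 and 1.5 without WT library 7. AGL80, AGL36, which shares sequence with other loci, and PHE2 had 16, 5 and 15 reads in the seed coat.

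The reference genes had a median of −0.19 over 12 tested and 0 calls by edgeR, with 2 lower at an unadjusted p under 0.05. EF1A, a translation elongation factor with an antisense neighbour, had 8275 and 12855 reads in WT and 4535 in the seed coat (−0.81, 95% interval −1.56 to −0.06, edgeR adjusted p = 0.458). ACT7, an actin, was at 0.06, UBQ10, a polyubiquitin, at 0.24 and TIP41 at −0.61. GAPC1, of glycolysis, was at −0.87, TUB2, a tubulin that shares sequence, at −1.36, and the actin genes ACT2 and ACT8 at −0.18 and 0.31. ACT2 and ACT8 turned to 0.14 and −0.05 without WT library 11. The 12 genes ranged from −1.36 to 0.31.

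**Figure D5:**
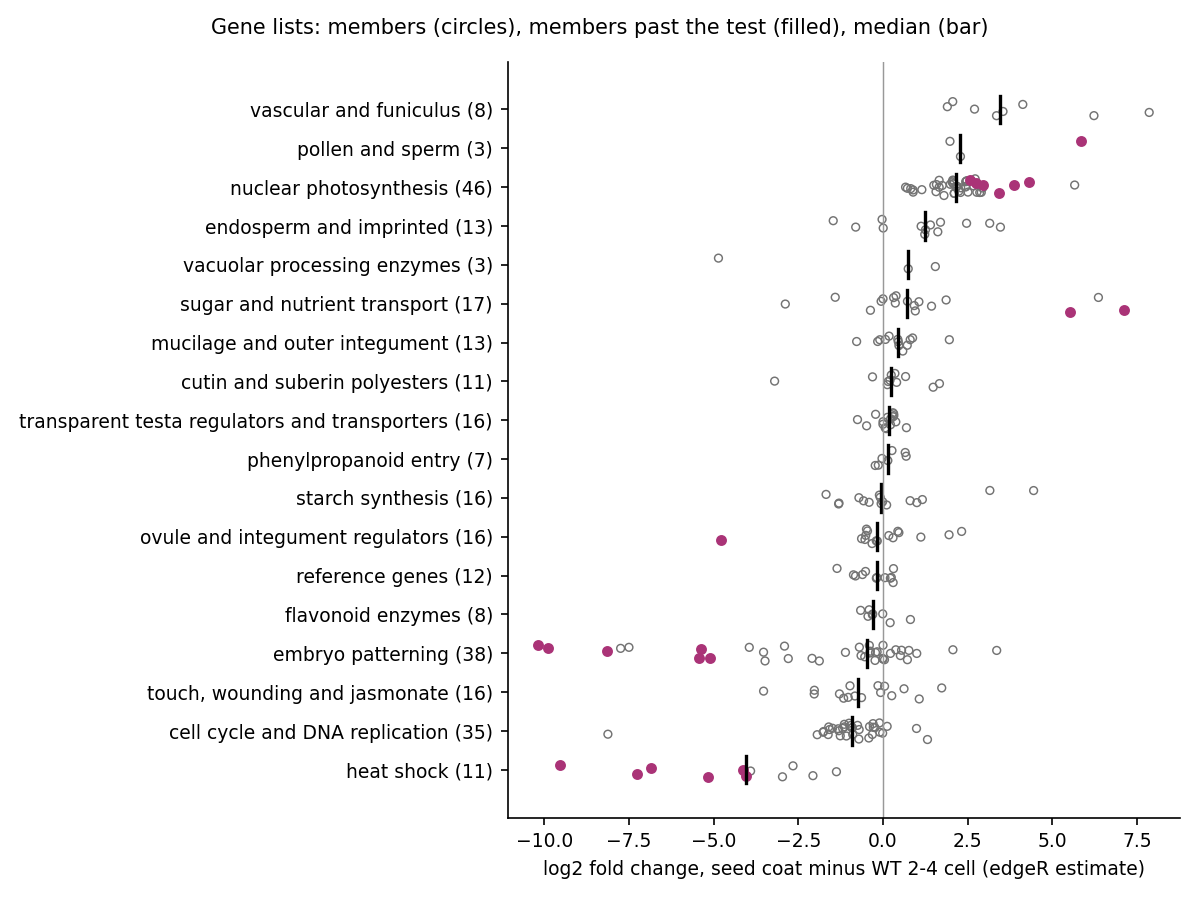
Fitted log2 fold changes, seed coat minus WT 2-4 cell embryos, of the tested members of 18 gene lists (numbers in parentheses), with called genes filled and the median as a bar; members without reads in a group have fitted values that are no bound. Photosynthesis members all lie right of 0 and heat shock members all left, while flavonoid, phenylpropanoid and transparent testa lists centre between −0.31 and 0.18.

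Leaving out a single library moved the fold change of 21 of the 44 named genes called by over 1.5-fold, and each of these moves came with a WT library. Of the 44 calls, 32 were held under all 14 alternatives.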

How the data were processed

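Total RNA of dissected embryos and seed coat was amplified linearly, sheared, enriched by PCR and sequenced on SOLiD, per the labels' protocols. The deposited files give, per isoform, the count of reads lying fully in the transcript, the transcript length and the coverage as the number of covered bases, per the file headers. In WT library 11 and kyp library 12 the deposited values are estimated counts, ending in 0.5 in 12.7% and 10.8% of the transcripts, and these were rounded up. The aligner, build, annotation and strand setting are not given in the sources used here. Each of 32140 loci was represented by the isoform with most reads over the 6 libraries. Symbols and antisense neighbours came from the TAIR10.1 RefSeq annotation, which held 31584 of them; no coordinates or sequences are given.

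Tests used edgeR 4.0.16 in R 4.3.3 (TMM scaling, low genes dropped by filterByExpr at 10 reads, quasi-likelihood F test, Benjamini-Hochberg adjustment at 0.05) on all 6 libraries in 4 groups, with the seed coat against WT as contrast. The test was tested on simulated data. DESeq2 1.42.0 was an alternative. Ratios with 3 or fewer reads on 1 side have exact 95% counting intervals, and genes at 0 were set at a floor of 3 reads per library. For genes without seed coat reads, the mean WT level was set over that floor. Named were the 15 largest called changes per direction with at least 20 reads on average, and up to 8 members per list (called ones, then the most abundant); other names were chosen after their values were seen. The comparison and the 18 lists (330 loci) were chosen with earlier results of these data known.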

Additional observations from a re-analysis of the deposited data

Results flagged for a closer look

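A few listed genes had no read in the 3 compared libraries but were read in a library outside the comparison. SWEET9, a sucrose exporter of nectaries, had 221 reads in the globular library, and DRNL, an AP2 factor of the early embryo, had 47 there. MYB111, a regulator of flavonol synthesis, had 17 reads in kyp library 11. L1L, a relative of LEC1, had 12 reads in kyp library 12.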

How the results depend on the processing

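The counts of genes called (28 higher, 111 lower) depended on the model. DESeq2 called 47 and 395, edgeR without a low-count filter 145 and 334, the fit of the 3 compared libraries 120 and 258, the name prefix MC as a block 52 and 244, and summed isoforms 13 and 72. Leaving out 1 library gave 26 to 134 higher and 105 to 294 lower. Rules of 2-fold and 8-fold gave 1786 and 105 genes above both WT libraries, 1346 and 110 below, and CPM of gene totals gave 745 above and 213 below at 4-fold (467 and 304 with TMM). List medians moved for vacuolar processing enzymes (1.16 with 3 libraries, 0.31 with the MC block), sugar and nutrient transport (0.88, MC), photosynthesis (1.82, MC), embryo patterning (−0.66 with 3 libraries, −0.31 thinned to equal depth), endosperm (0.28 MC, 0.63 thinned), vascular (4.48 MC, 3.81 thinned), touch (−0.55, MC) and reference genes (−0.068, thinned). With 1 library left out they spanned −0.69 to 0.39 for flavonoid enzymes, −0.27 to 0.18 for ovule regulators, 0.24 to 0.45 for cutin, 0.50 to 0.84 for vacuolar processing enzymes, 0.73 to 1.06 for sugar transport, 2.16 to 2.35 for photosynthesis, −0.60 to −0.34 for embryo patterning, 0.99 to 1.82 for endosperm, 2.97 to 5.24 for vascular (SEOR1, tested through the seed coat alone, included), 1.73 to 4.16 for pollen and −0.73 to −0.31 for touch genes. The endosperm medians include PHE2, tested through the seed coat alone, and the ovule medians AGL63 and SUP, tested through the WT libraries alone. The causes of the moves of the medians were not tested.

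Changes of sign were limited to uncalled named genes. CHI was 0.0039 with 3 libraries. With the MC block TT12 was −0.059, TT2 −0.066, 4CL1 −0.019, 4CL2 0.21, GPAT4 −0.053, SS2 0.014, TCH4 −0.10 and ACT8 −0.11. Thinned, 4CL3 was 0.11, RHM2 0.054 and HDG3 0.054. FWA was −0.019 with RLE factors, −0.017 by DESeq2 and −0.013 without a filter. With 1 library left out the ranges were −0.88 to 0.63 (CHS), −0.92 to 0.38 (F3H), −0.89 to 0.22 (F3PH), −0.50 to 0.74 (CHI), −0.11 to 0.87 (GSTF12), −0.13 to 0.44 (TT12), −0.10 to 0.25 (TT2), −0.65 to 0.36 (PAL1), −0.43 to 0.51 (4CL3), −0.23 to 1.01 (4CL1), −0.46 to 0.19 (STK), −0.94 to 0.034 (SHP2), −0.50 to 0.47 (RHM2), −0.42 to 0.16 (CESA5) and −0.055 to 0.21 (GATL5). They were −0.12 to 0.43 (GPAT4), −0.39 to 1.03 (CYP86A2), −0.65 to 0.13 (GPAT8), −0.051 to 1.00 (NRT1.6), −0.53 to 2.77 (SUC5), −0.25 to 0.16 (SS2), −0.44 to 0.0078 (PDF2), −0.40 to 0.60 (FWA), −0.77 to 1.5 (HDG3), −0.12 to 0.23 (TCH4), −1.99 to 0.12 (LOX2), −0.047 to 0.78 (ACT8) and −0.44 to 0.14 (ACT2). No paired analysis was possible because the seed coat library and the WT libraries share no replicate number. The organelle part of leaving out ribosomal and organelle loci had no locus to act on. Genes at 0 or a few reads have bounds set by depth.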

Other observations

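Among annotated protein families, picked after the calls were seen, several held more than 1 gene that fell in the seed coat by edgeR, where 0.627% of all genes fell and 0.158% rose. Of 4 NOP56-like genes, whose products are core proteins of small nucleolar RNA particles, 3 fell and the median log2 fold change was −2.59. NOP56 itself had 4444 and 4219 reads in WT and 445 in the seed coat. Of 16 storekeeper genes tested 5 fell and 14 were negative, and of 8 DUF674 genes 3 fell and 7 were negative. Of 40 B3 genes 3 fell, and of 22 HSP20-like chaperone genes 6 fell while 9 were positive. On the other side, 2 of 3 dormancy and auxin associated genes rose. As the families were picked for their calls, these counts are descriptions.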
